A study of Homo sapiens with 9 samples.

Results

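The 10 genes described here make and modify long-chain fatty acids: ACLY, ACACA, FASN, SCD, ELOVL5, ELOVL6, FADS1, FADS2, ACSL3 and ACSS2. They were taken by symbol, with no value in the rule, and all 10 were found among the 60651 gene rows of the count table, which also holds 1181 rows of repeat subfamilies. The cells were HCT116, a widely used line from a human colorectal cancer, with the genotype given as WT. By label, the 9 RNA-seq libraries form 3 groups of 3. The cells of shCTRL DMSO had a control short hairpin RNA and the solvent DMSO. Those of shSLC6A3 DMSO had a hairpin named for SLC6A3, the dopamine transporter gene, with DMSO. Those of shCTRL VXN had the control hairpin and a treatment written VXN, which is not spelled out. The title of replicate 3 of shCTRL VXN has VNN in its place, and its treatment label, which has VXN, was used. No label gives a dose, a time, the number of hairpins or clones, or whether replicates came from separate cultures. The p-values therefore rest on the spread among these particular libraries, and that spread may be technical.

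Cells build palmitate in the cytosol from acetyl-CoA, which ACLY cuts from citrate and ACSS2 makes from acetate. ACACA turns acetyl-CoA into malonyl-CoA, and FASN joins the units into palmitate. ELOVL6 lengthens saturated chains, SCD introduces a first double bond, and ELOVL5, FADS1 and FADS2 lengthen and desaturate polyunsaturated chains. ACSL3 couples long-chain fatty acids to CoA for use in lipids and lipid droplets. The transcription factors SREBF1 and SREBF2 are known to raise many of these genes when membrane lipid is low, and colorectal cancer cells are known to make fatty acids themselves.

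The labels and the authors' 2 deposited tables of fold changes group the libraries differently. One deposited table sets shCTRL V against shCTRL D. The other sets shDAT D against the same shCTRL D, and the letters V, D and DAT are not spelled out in them. A DESeq2 rerun gave all 38907 p-values of each deposited table within 1e-06 when 3 particular trios of columns were used. With the labelled groups, 0% and 1.41% of those p-values were matched. The V columns are the libraries labelled shCTRL VXN replicate 3, shCTRL DMSO replicate 3 and shSLC6A3 DMSO replicate 1. The D columns are those labelled shSLC6A3 DMSO replicates 2 and 3 and shCTRL VXN replicate 2. The DAT columns are those labelled shCTRL DMSO replicates 1 and 2 and shCTRL VXN replicate 1. Which of the groupings is right cannot be told apart here, so the labelled comparisons and the deposited tables are given separately, and each library keeps its label.

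Total counts per library ran from 30251364 to 60215785. SLC6A3 itself had between 0 and 6 counts in a library, and its level could not check the hairpin labels. A chi-square of counts per degree of freedom, which is near 1 where only counting noise separates a pair of libraries, was 1.38 between shSLC6A3 DMSO replicate 1 and replicate 3 of shCTRL DMSO and 1.54 for shSLC6A3 DMSO replicates 2 and 3. It was 16.4 and 16.8 for shCTRL VXN replicate 3 with the other V columns. It was 91.4 and 96.5 for shCTRL VXN replicate 2 with the other D columns, but 10.8 and 12.6 with shCTRL DMSO replicates 1 and 2 of the DAT columns. Epithelial markers summed to between 4517 and 5598 CPM (counts scaled to library size) in all 9 libraries, though VIL1 had at most 6 counts. The 7 mesenchymal and fibroblast markers summed to at most 46.94 CPM, with LUM at 0 in every library. The 8 leukocyte and endothelial markers summed to at most 8.357 CPM.

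Promoter sequence is shown for the genes that differed most between the columns of the V table and for FADS2, which differed least. RefSeq starts on GRCh38.p14 were matched for 9 of the 10 genes, with 14 starts between them. FASN was the gene without an entry, so no motif count below covers it. Each stretch below runs 5′ to 3′ on the gene's strand and lies in the 250 bases before a start, outside the exons annotated in GENCODE v29. Capitals mark a CCAAT box (CCAAT or ATTGG) or a GC box (GGGCGG or CCGCCC). The stretches are chr20:34874739-34874941 on the plus strand for ACSS2, chr10:100346983-100347123 on the plus strand for SCD, chr4:110198677-110198841 on the minus strand for ELOVL6, chr17:41919023-41919272 on the minus strand for ACLY and chr11:61816149-61816202 on the plus strand for FADS2.
ACSS2: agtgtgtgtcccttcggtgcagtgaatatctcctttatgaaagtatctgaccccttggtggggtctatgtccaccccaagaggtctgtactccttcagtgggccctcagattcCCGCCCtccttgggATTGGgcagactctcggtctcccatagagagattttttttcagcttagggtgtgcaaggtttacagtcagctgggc
SCD: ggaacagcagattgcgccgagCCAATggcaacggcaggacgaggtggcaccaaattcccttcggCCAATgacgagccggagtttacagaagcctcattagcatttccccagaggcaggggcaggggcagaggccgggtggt
ELOVL6: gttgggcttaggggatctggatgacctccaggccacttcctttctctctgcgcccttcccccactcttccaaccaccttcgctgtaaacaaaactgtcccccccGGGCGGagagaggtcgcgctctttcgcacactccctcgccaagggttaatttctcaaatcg
ACLY: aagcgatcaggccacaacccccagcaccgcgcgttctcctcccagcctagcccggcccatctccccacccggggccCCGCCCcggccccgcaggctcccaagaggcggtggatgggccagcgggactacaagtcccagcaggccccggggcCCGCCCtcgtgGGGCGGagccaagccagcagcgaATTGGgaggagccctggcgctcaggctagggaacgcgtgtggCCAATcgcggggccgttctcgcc
FADS2: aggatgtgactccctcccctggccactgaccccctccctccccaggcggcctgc

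The stretch before ACLY held 5 capitalised motifs, 2 of them CCAAT boxes, and the SCD stretch held 2 CCAAT boxes. The FADS2 stretch of 54 bases, the shortest printed, held neither motif. Over the full 250 bases the first FADS2 start again had neither, and its second start had 1 GC box. The second ACSS2 start, not printed, had 3 GC boxes and no CCAAT box. The second ACLY start, also not printed, had 4 GC boxes and 2 CCAAT boxes. The SCD window had 2 GC boxes outside the printed stretch. Over the whole 250 bases before each of the 14 starts, read on both strands, a CCAAT box lay before at least 1 start of 6 of the 9 genes, against 32.0% of 35116 promoters in the RefSeq table. A GC box lay before 8 of the 9, against 42.6% of promoters. The E box CACGTG, a motif bound by factors of the MLX and MYC families, lay before ELOVL5 only, against 6.34% of promoters. The letters TCACNCCAC, a core form of the sterol regulatory element to which the SREBF proteins bind, were before none of the 9, against 0.883% of promoters. Genes with several starts had more chances of a match. These matches describe letters in a short window and say nothing of which factor binds.

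In the libraries as labelled, none of the 10 genes was called in either comparison. The levels inside each labelled group split instead: ACSS2, which makes acetyl-CoA from acetate, stood at 49.5, 47.97 and 417.3 CPM in shCTRL DMSO replicates 1 to 3. It stood at 416.5, 55.27 and 55.53 CPM in shSLC6A3 DMSO and at 62.04, 49.21 and 501.2 CPM in shCTRL VXN. Each labelled group thus held 1 library with high ACSS2, and it was the V column in each case. In such bulk RNA, fewer cells with a transcript and less transcript per cell cannot be told apart.

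SCD, the desaturase that makes oleate from stearate, was at 2249, 2246 and 7154 CPM in shCTRL DMSO. It was at 7164, 1586 and 1590 CPM in shSLC6A3 DMSO and at 2537, 2316 and 7965 CPM in shCTRL VXN. The same 3 libraries were high, and the labelled groups overlapped.

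By edgeR's quasi-likelihood test over 20402 features, the fold changes of the 10 genes for shSLC6A3 DMSO against shCTRL DMSO ran from -0.26 (ACACA) to 0.09 (ELOVL6) on the log2 scale, with a median of -0.09. The Benjamini-Hochberg adjusted p was 0.985 for ACACA and 0.999 for the rest. Of all features 0.00% were called, 930 had an unadjusted p below 0.05, none of them one of the 10 genes, and DESeq2 called 0. For shCTRL VXN against shCTRL DMSO the range was -0.09 (ACSL3) to 0.26 (ACSS2, FASN), with a median of 0.07 and every adjusted p at 0.99998 by edgeR. There, 0.00980% of features were called, 384 had an unadjusted p below 0.05, again none of the 10 genes, and DESeq2 called 9 features higher and 9 lower. The SD of ACSS2 inside the labelled groups (213 CPM in shCTRL DMSO, with a mean of 171.6 CPM, n = 3) exceeded its mean, so a change of the size seen between libraries could not be separated from that spread.

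**Figure D1:**
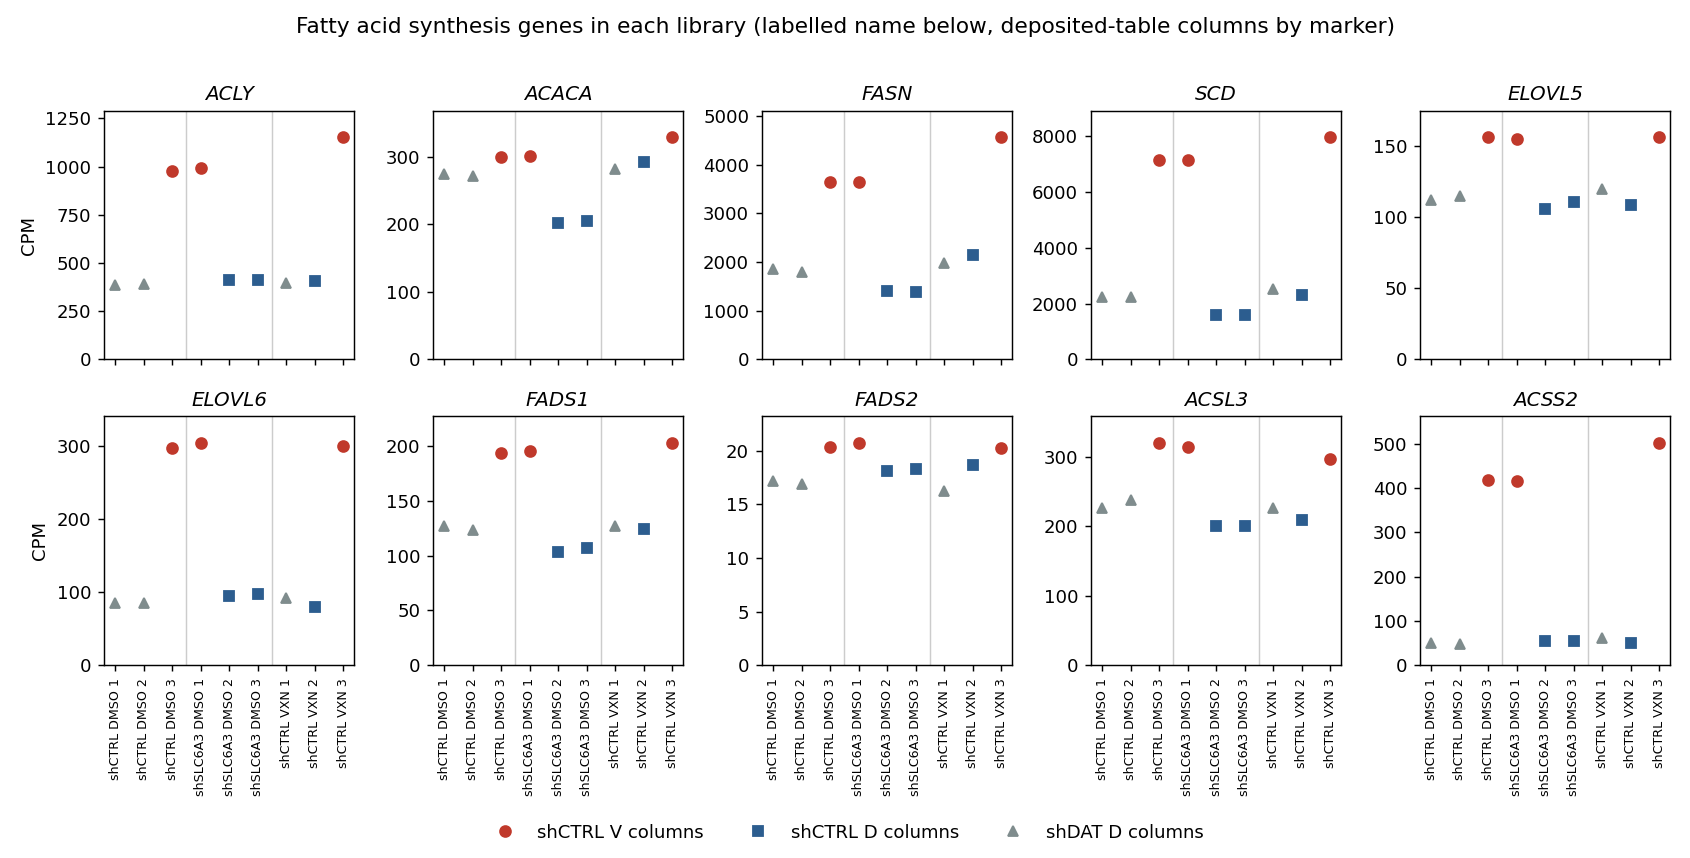
CPM (linear axis from 0) of each of the 10 genes in the 9 libraries, ordered by labelled group, with the columns behind the deposited tables shown by marker. The V columns, 1 in each labelled group, lie above the other 6 libraries in every panel; ACSS2 reaches 501.2 CPM in shCTRL VXN replicate 3 and at most 62.04 CPM outside the V columns.

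All 10 genes had their 3 V columns above the other 6 libraries, a pattern that 26.5% of all 20402 features also had. With plain totals in place of TMM scaling the count was 9, because ACACA then overlapped. In the authors' deposited table of shCTRL V against shCTRL D, 9 of the 10 genes were higher at an adjusted p below 0.05, where 21.4% of the 24274 features with an adjusted p were higher. Of the 10, 5 were higher by at least 2-fold in that deposited table, against 5.35% of features. The median log2 fold change of the 10 was 1.04, and that of all features was -0.0016. FADS2 was the gene not called. In reruns without each of the 6 libraries in turn, 9 of the 10 were called each time, while between 4376 and 5604 of all features (23979 to 26965 with an adjusted p) were called higher.

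Both genes that supply acetyl-CoA rose, by unequal amounts. ACSS2 (chr20:34872146-34927962, plus strand) had 417.3, 416.5 and 501.2 CPM in the V columns. It had 55.27, 55.53 and 49.21 CPM in the D columns, listed here and below with shCTRL VXN as the last. The authors' deposited table gives ACSS2 a log2 fold change of 3.06 (SE 0.12, adjusted p 9.40e-145), or 8.35-fold. ACLY (chr17:41866908-41930542, minus strand) had 979.9, 994.5 and 1152 CPM in the V columns against 411.6, 410.3 and 408.6 CPM in the D columns. Its log2 fold change in the authors' deposited table was 1.35 (SE 0.08, adjusted p 8.98e-70). Both genes separated the columns fully, and shCTRL VXN replicate 3 was the highest library for each. There were 0.4188 to 0.4352 ACSS2 counts per ACLY count in the V columns and 0.1205 to 0.1563 in the other 6 libraries.

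Of the committed steps, FASN had the larger change and ACACA the smaller. FASN (chr17:82078333-82098332, minus strand), the synthase itself, had 3652, 3648 and 4564 CPM in the V columns and 1397, 1383 and 2137 CPM in the D columns. The authors' deposited table gives it 1.25 (SE 0.16, adjusted p 1.90e-15) on the log2 scale. ACACA (chr17:37084988-37406818, minus strand), the carboxylase that makes malonyl-CoA, had 299.8, 300.7 and 328.4 CPM against 201, 205.4 and 292 CPM. Its log2 fold change in the authors' deposited table was 0.40 (SE 0.13, adjusted p 0.00279). For ACACA the D column labelled shCTRL VXN replicate 2 lay close to the V columns. The value was 0.61 in a DESeq2 rerun without that library and 0.41 in a rerun with all libraries and TMM factors. FASN counts per ACACA count were 12.13 to 13.9 in the V columns and 6.622 to 7.318 elsewhere.

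Among the elongases the saturated-chain enzyme stood apart. ELOVL6 (chr4:110045846-110199199, minus strand), which takes palmitate to stearate, had 297.5, 304.1 and 300 CPM in the V columns and 95.26, 96.77 and 79.78 CPM in the D columns. The authors' deposited table gives ELOVL6 a log2 fold change of 1.73 (SE 0.09, adjusted p 2.96e-85). ELOVL5 (chr6:53267398-53349179, minus strand), the elongase of polyunsaturated chains, had 155.9, 154.9 and 156 CPM against 105.4, 110.6 and 108.5 CPM. Its log2 fold change in the authors' deposited table was 0.53 (SE 0.05, adjusted p 4.65e-21). ELOVL6 had 1.908 to 1.963 counts per ELOVL5 count in the V columns and 0.7354 to 0.9037 in the other 6, so the order of their counts turned over.

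The desaturases ranged from the smallest change of the 10, that of FADS2, to the change of SCD, which was below that of ACSS2 alone. SCD (chr10:100347124-100364834, plus strand) had 7154, 7164 and 7965 CPM in the V columns and 1586, 1590 and 2316 CPM in the D columns. In the authors' deposited table its log2 fold change was 2.01 (SE 0.14, adjusted p 1.78e-49). Reads of SCD could be split with its processed pseudogene SCDP1, whose counts were at most 0.137% of those of SCD in a library.

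FADS1 (chr11:61799625-61829318, minus strand), the delta-5 desaturase of polyunsaturated chains, had 193.8, 195.7 and 202.6 CPM in the V columns against 103.5, 106.6 and 123.8 CPM in the D columns. The authors' deposited table gives it 0.83 (SE 0.08, adjusted p 3.33e-26) on the log2 scale. FADS2 (chr11:61792980-61867354, plus strand), the delta-6 desaturase that acts before FADS1, had 20.34, 20.73 and 20.29 CPM against 18.11, 18.3 and 18.72 CPM. Its log2 fold change in the authors' deposited table was 0.16 (SE 0.07, adjusted p 0.0584), so FADS2 missed the threshold although its columns did not overlap. By edgeR on the same columns its adjusted p was 0.0194, and all 10 genes were then called higher, as were 28.0% of features.

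FADS1 and FADS2 are read in opposite directions. The RefSeq start of FADS1 (61817003) lies 800 bases from the FADS2 start whose upstream stretch is printed above (61816203), and FADS2 has a further RefSeq start at 61816404. The gene spans from GENCODE v29 given here reach beyond these starts. In that annotation 142 exon bases of one gene overlap the other on the opposite strand. The strand setting of the counting is not given in the sources used here, so reads from that overlap could be split either way. The overlap is 1.8% of the exon bases of FADS1 and 2.85% of those of FADS2. On the same strand, FADS2 also shares 49 exon bases (0.984%) with FEN1, and FADS1 shares 80 (1.01%) with MIR1908. FADS1 counts per FADS2 count were 9.438 to 9.984 in the V columns, 7.313 to 7.82 in the DAT columns and 5.716 to 6.614 in the D columns, without overlap between the trios.

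ACSL3 (chr2:222860934-222944639, plus strand), the acyl-CoA ligase of lipid droplets, had 319.8, 314.6 and 296.8 CPM in the V columns and 200.7, 199.8 and 208.9 CPM in the D columns. The authors' deposited table gives it 0.62 (SE 0.05, adjusted p 2.89e-30) on the log2 scale. Unlike ACSS2, ACLY, FASN and SCD, which were highest in shCTRL VXN replicate 3, ACSL3 had its lowest V column there.

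**Figure D2:**
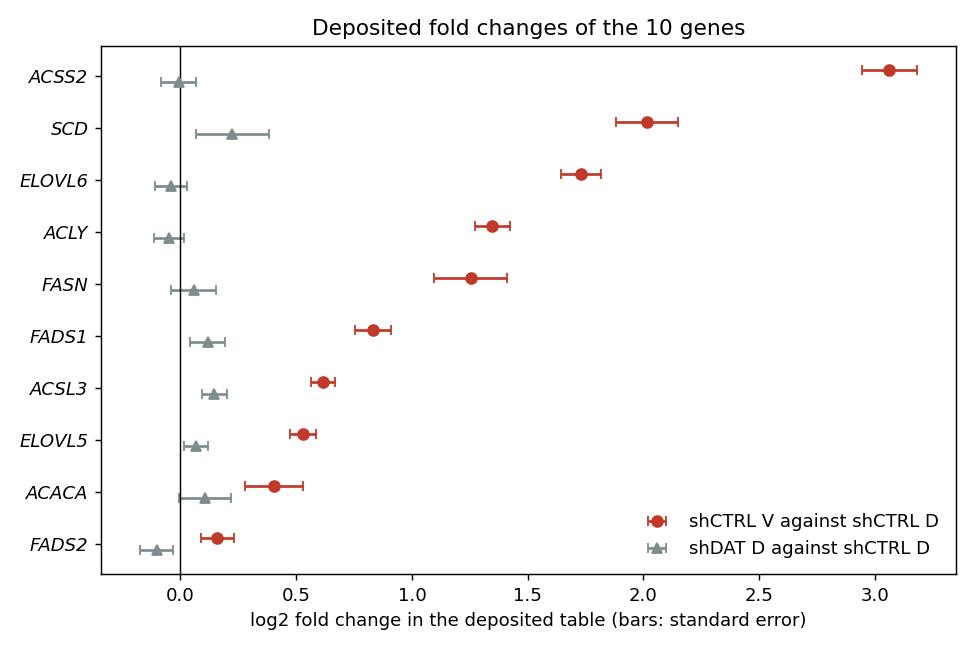
Log2 fold change of the 10 genes in each of the authors' deposited tables, with bars for the deposited standard error. In shCTRL V against shCTRL D the values run from 0.16 (FADS2) to 3.06 (ACSS2); in shDAT D against shCTRL D they run from -0.10 (FADS2) to 0.22 (SCD). Both tables use the same D columns.

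**Figure D3:**
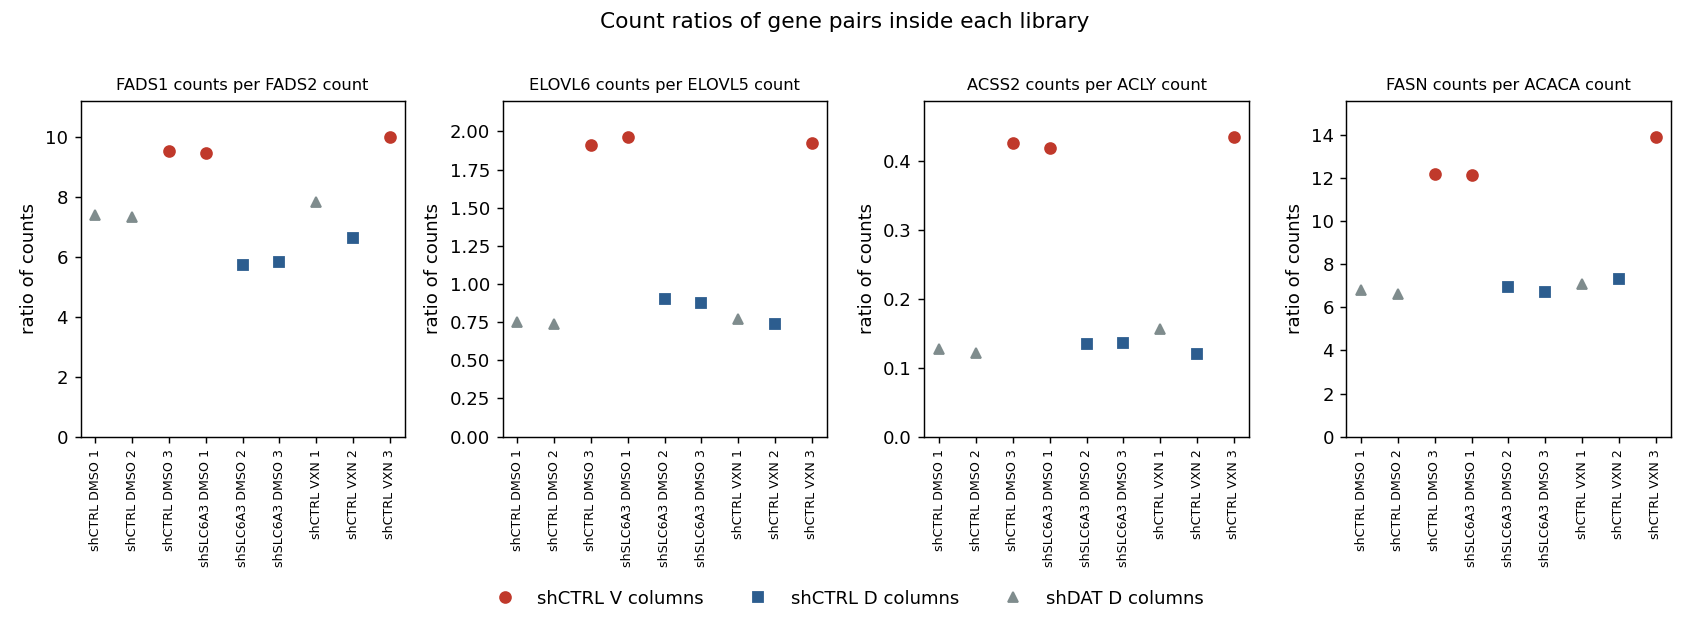
Ratio of counts (linear axis from 0) of 4 gene pairs inside each library, which needs no scaling between libraries. The V columns lie above the other 6 libraries in each pair, for example 1.908 to 1.963 ELOVL6 counts per ELOVL5 count against at most 0.9037.

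Per kilobase of exon, the levels of the 10 genes spanned a wide range. RPKM, the CPM per kilobase, on exon lengths from GENCODE v29, averaged 1385 ± 86.6 (SD, n = 3) for SCD and 461.7 ± 61.6 for FASN in the V columns. They averaged 238 ± 21.7 for ACLY, 143.4 ± 15.7 for ACSS2 and 54.66 ± 2.12 for ACSL3. ELOVL6 at 45.33 ± 0.506 and ELOVL5 at 44.65 ± 0.168 were next to each other, followed by ACACA at 28.09 ± 1.48, FADS1 at 24.96 ± 0.586 and FADS2 at 4.108 ± 0.0488. In the D columns SCD (341.5 ± 78.4 RPKM), FASN (191.4 ± 50.4) and ACLY (93.69 ± 0.346) were again the top 3 and FADS2 (3.691 ± 0.0624) the lowest. ACSS2 ranked directly below ACLY in the V columns, above ACSL3, ELOVL5 and ACACA. At 17.18 ± 1.15 RPKM in the D columns it lay below those 3 genes. ELOVL6 and FADS1 had overlapping RPKM in the D columns (12.03 to 14.59 and 13.09 to 15.66), so their order there was not separable from the spread.

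In the authors' deposited table of shDAT D against shCTRL D, 1 of the 10 genes was called. ACSL3 had 226.3, 237.9 and 226.6 CPM in the DAT columns against 200.7, 199.8 and 208.9 CPM in the D columns, without overlap. Its log2 fold change in the authors' deposited table was 0.15 (SE 0.05, adjusted p 0.0397). Of the 10403 features with an adjusted p, 1.0% were called higher in that deposited table. SCD had 2249, 2246 and 2537 CPM in the DAT columns and 1586, 1590 and 2316 CPM in the D columns, with 0.22 (SE 0.16, adjusted p 0.0797) in the authors' deposited table. ACSS2 (-0.01, adjusted p 0.917), ELOVL6 (-0.04, adjusted p 0.581) and ACLY (-0.05, adjusted p 0.480), which were among the 4 highest in the V table, were near 0 in this deposited table. FADS2 had the lowest value there, -0.10 (SE 0.07, adjusted p 0.170), with 17.15, 16.91 and 16.22 CPM in the DAT columns, all below the D columns.

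These shDAT D values depended on the library labelled shCTRL VXN replicate 2. It held 1.54 times the FASN, 1.46 times the SCD, 1.44 times the ACACA, 1.18 times the FADS1 and 0.831 times the ELOVL6 of the mean of the other D columns. In a DESeq2 rerun without it, 6 genes were called. Fold changes of that rerun were not shrunken, so their sizes cannot be set directly against the deposited ones. ACACA (0.42, adjusted p 1.06e-13), SCD (0.54, adjusted p 1.20e-15), FASN (0.42, adjusted p 0.00352), FADS1 (0.24, adjusted p 5.20e-06) and ACSL3 (0.18, adjusted p 0.000501) were higher in the DAT columns, and ELOVL6 (-0.16, adjusted p 0.00729) was lower. In the same rerun 13.8% of all features were called higher and 21.1% lower. Without any other single library, and by edgeR on the same columns, none of the 10 was called. Those settings called few features of any kind: 0 of 20402 by edgeR and between 0 and 3 in each rerun without another single library. The loss of ACSL3 there was thus not particular to it. A DESeq2 rerun with all libraries and TMM factors still called ACSL3 (0.18, adjusted p 0.0470), with 118 features higher and 308 lower of 14048.

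Genes around the pathway divided by role in shCTRL V against shCTRL D, where 22.7% of all features were lower in the authors' deposited table. Of 12 genes that control lipid synthesis, 8 were higher and none lower, with a median log2 fold change of 0.53. INSIG1, which retains SREBF proteins in the endoplasmic reticulum and is itself an SREBF target, had 706.3, 706.3 and 809.9 CPM in the V columns. It had 79.03, 77.26 and 108.9 CPM in the D columns, and its log2 fold change of 3.06 (adjusted p 2.71e-78) in the authors' deposited table was close to that of ACSS2. MLXIPL, a sugar-responsive activator of lipid genes, was 1.21 higher and MID1IP1, which promotes ACACA polymerisation, 0.83 higher on the log2 scale of the authors' deposited table.

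SREBF1 itself had a smaller fold change than 9 of the 10 genes, and SREBF2 lay between FADS1 and FASN. SREBF1 had 300.9, 302 and 321.4 CPM in the V columns and 209.4, 214.3 and 309.5 CPM in the D columns, which overlapped. Its log2 fold change in the authors' deposited table was 0.33 (SE 0.13, adjusted p 0.0211). SREBF2 had 528.5, 532 and 572.9 CPM against 242.2, 246 and 381.3 CPM, with 0.89 (SE 0.15, adjusted p 3.57e-09) in the authors' deposited table. The DAT columns had SREBF1 at 300, 280.1 and 290.9 CPM, near the V columns, while ACSS2 in the DAT columns overlapped the D columns.

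The supply of citrate and NADPH moved with the pathway except for citrate synthase. In the authors' deposited table IDH1 (1.98) and ME1 (1.78), which yield cytosolic NADPH, were higher on the log2 scale, and 5 of 6 genes of the list were called higher. CS, the mitochondrial citrate synthase, was lower (-0.80) in that deposited table. All 6 genes of the separate mitochondrial fatty acid synthesis pathway fell in the authors' deposited table (median -0.61), among them CBR4 (-0.91) and NDUFAB1 (-0.65).

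Partners and relatives of the 10 genes did not move as a block. The elongation cycle needs a reductase, a dehydratase and a second reductase beside the elongase. In the authors' deposited table the first, HSD17B12, was 1.19 higher on the log2 scale and the dehydratase HACD3 was -1.03. ELOVL3 was -1.48 in that deposited table, with a mean of only 4.978 CPM over the libraries. The second reductase, TECR, was lower (-0.41, adjusted p 1.89e-10) and another dehydratase, HACD2, was not called (-0.05, adjusted p 0.730) in the authors' deposited table; both were added after their values were seen. Of 8 such genes with an adjusted p, 3 were higher and 3 lower. Among 7 paralogs, 3 were called higher and the other 4 lower. FADS3, by the authors' deposited table, was 1.31, ACSL1 1.27 and ACSL4 0.84, while SCD5 was -0.82. The other lower paralogs were ACACB (-1.03), ACSL5 (-0.55) and ACSL6 (-1.63, SE 0.53) in that deposited table. They fell outside the rule for naming genes and were added after their values were seen. ACSL6 was scarce, with a mean of 1.122 CPM over the libraries. Genes that use the acyl chains in glycerolipids and droplets gave 4 higher and 2 lower of 12, with LPIN1 (2.71), a phosphatidate phosphatase, and PNPLA3 (1.41) highest and GPAM (-0.59) lowest in the authors' deposited table. Fatty acid oxidation gave 4 higher and 1 lower of 10, with a median of 0.10.

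In shDAT D against shCTRL D, 5.62% of all features were lower in the authors' deposited table. Of these lists, CS (-0.19) was lower and CBR4 (0.21) was higher in that deposited table. In the labelled comparisons no gene of any of these lists was called by edgeR.

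**Figure D4:**
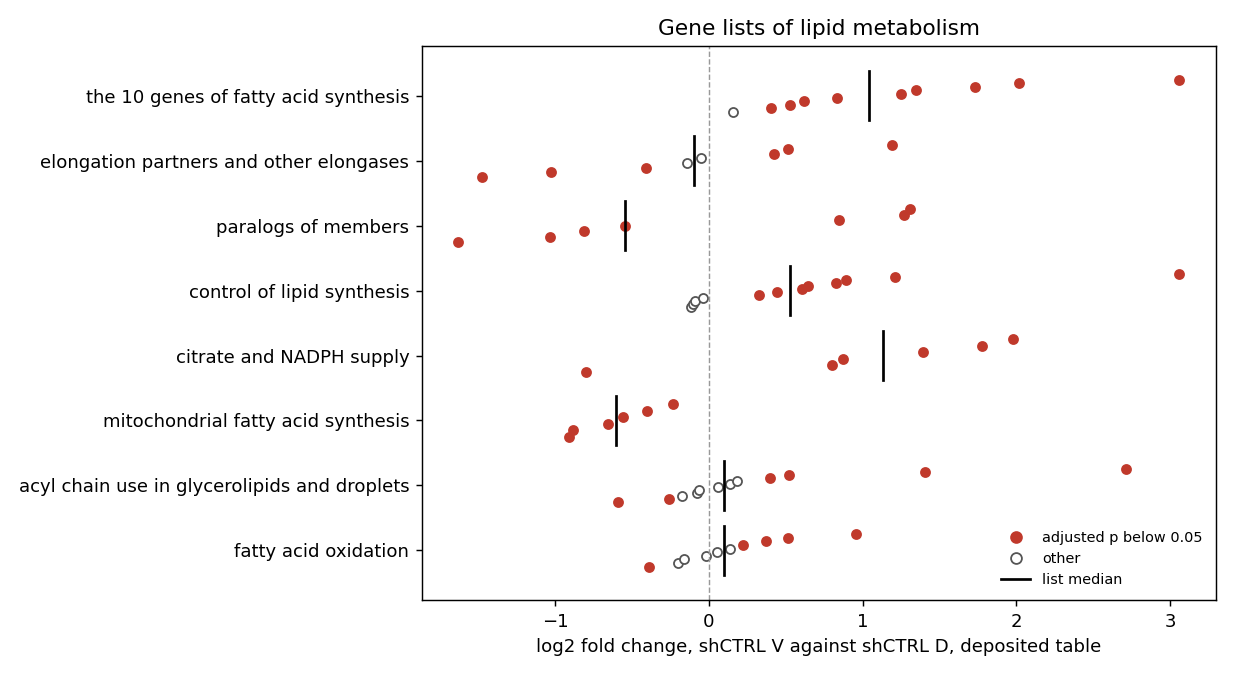
Log2 fold change in the authors' deposited table of shCTRL V against shCTRL D for the 10 genes and 7 lists of related genes, with 1 point per gene, filled where the adjusted p is below 0.05, and a bar at each list's median. The 10 genes (median 1.04) and the citrate and NADPH list (median 1.13) lie mostly to the right of 0, and mitochondrial fatty acid synthesis (median -0.61) lies to the left.

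Markers of dividing cells moved in the opposite direction to the 10 genes. The 5 proliferation markers summed to between 205.2 and 239 CPM in the V columns, 1359 to 1519 CPM in the D columns and 1284 to 1386 CPM in the DAT columns, and all 5 were lower in the authors' deposited V table. MKI67 alone was at 61.07 to 73.8 CPM in the V columns and at least 518.9 CPM elsewhere. The part of this difference in the fatty acid gene values was not tested. The summed epithelial markers were also higher in the V columns (5452 to 5598 CPM) than in the D columns (4517 to 4884 CPM). Not every marker rose: of 8 with an adjusted p, 4 were called higher and 0 lower in the authors' deposited V table. EPCAM (-0.18, adjusted p 0.158) and KRT8 (0.01, adjusted p 0.900) were not called there. The part of the epithelial markers was not tested either.

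The genes whose centred log2 CPM over the 9 libraries lay nearest to each of the 10 were searched among 9949 genes with a mean of at least 10 CPM, leaving out the 10 themselves. The likeness is a root mean square difference in log2 units, and it rests largely on the gap between the V columns and the rest. ELOVL6 was nearest to NSDHL (0.0427) and FDPS (0.0584), both enzymes of cholesterol synthesis. ACLY was nearest to FADS3 (0.0621) and RELB (0.0659), and FASN to PLAT (0.0613) and ACSL1 (0.0746). ACSS2 had no gene as near: LIPG, an endothelial lipase, was at 0.145 and LPIN1 at 0.158. SCD was nearest to TCP11L2 (0.0605) and TP53INP1 (0.099), ACACA to STAT3 (0.0365) and LAMA5 (0.0448), and ELOVL5 to KCTD10 (0.0357) and SLC39A11 (0.0359). FADS1 was nearest to CD46 (0.0441), FADS2 to MYO1C (0.0322) and LMNA (0.0377), and ACSL3 to RSPH3 (0.0344) and TAF7 (0.04).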

How the data were processed

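Raw counts for genes and repeat subfamilies in 9 HCT116 libraries were deposited by the authors (TruSeq RNA v2 kit, Illumina NextSeq, per the labels' protocols). The submitters' processing notes name fastp 0.20.1, FastQC 0.11.9, STAR, GRCh38 and DESeq2 1.34.0; which program counted the reads, with which strand setting and annotation, is not given in the sources used here. Log2 fold changes, their standard errors, p-values and adjusted p were deposited as DESeq2 output, per the file headers. The base mean in the deposited tables, a normalised signal, entered no value here. Whether the deposited log2 fold changes were shrunken is not stated. Reruns here were not shrunken, and a rerun on the same columns gave the deposited p-values. In shDAT D the deposited SCD value of 0.22, divided by its SE of 0.16, does not give its DESeq2 p of 0.0109. With TMM factors the rerun gave SCD 0.36 and FASN 0.20 in shDAT D, where the deposited values were 0.22 and 0.06. Deposited and rerun fold changes thus differ in scale there, and the deposited SE is not the one behind the adjusted p.

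The comparisons by label used edgeR 4.0.16 (quasi-likelihood, TMM, 1 fit of all 9 libraries; R 4.3.3) over 20402 features that passed its low-count filter (19488 genes, 914 repeats), with Benjamini-Hochberg adjustment over all of them and a threshold of 0.05. DESeq2 1.42.0 was the alternative and the tool of the reruns. Both were tested on simulated data. Gene positions and exon lengths came from GENCODE v29 (GRCh38), whose gene versions are older than those in the count table, so RPKM values are approximate. Promoters came from RefSeq (GRCh38.p14). CPM values are TMM-scaled.

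The 10 genes and the related lists were chosen with earlier results of these data known, and the trios of columns behind the deposited tables had been found earlier from the values. All 10 genes were named, with at most 4 called genes per list and comparison, by adjusted p, the 2 nearest genes of each, and SREBF1, SREBF2, MKI67 and SLC6A3. Some items that this rule names are not reported here. Alternatives were the tool, the low-count filter, the scaling, a replicate block and leaving out each library. Deviations from the group mean were correlated between same-numbered libraries. For shSLC6A3 DMSO and shCTRL DMSO, r was -0.671, 0.619 and -0.648 for numbers 1 to 3. For shCTRL VXN and shCTRL DMSO it was 0.663, 0.699 and 0.884. Between the latter groups, numbers 1 and 2 crossed gave 0.669 and 0.723, and pairs with 1 number 3 gave -0.797 to -0.744. The V column is number 3 in both of these groups and number 1 in shSLC6A3 DMSO. These r values follow its place and cannot tell whether a number pairs libraries. No label says what a number shares.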

Additional observations from a re-analysis of the deposited data

How the results depend on the processing

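For the labelled comparisons no alternative called any of the 10 genes. The replicate block also gave 0 called genes in both comparisons and changed no call. In shCTRL VXN against shCTRL DMSO, 1 of 3 shCTRL VXN libraries correlated best with its own number. Of 90 alternative fold changes per labelled comparison, 23 (shSLC6A3) and 24 (shCTRL VXN) turned in sign, none of them called. All of these came from the 6 fits per comparison that left out a library. The fits with DESeq2, without the low-count filter and with the replicate block turned no sign. On the log2 scale, leaving out 1 library gave for shSLC6A3 DMSO against shCTRL DMSO ranges of -0.54 to 0.64 (ACLY), -0.84 to 0.24 (FASN), -1.32 to 0.63 (SCD), -0.27 to 0.13 (ELOVL5), -0.73 to 0.98 (ELOVL6), -0.52 to 0.12 (FADS1), -0.018 to 0.16 (FADS2), -0.41 to 0.040 (ACSL3) and -1.66 to 1.87 (ACSS2). For shCTRL VXN against shCTRL DMSO the ranges were -0.55 to 0.76 (ACLY), -0.24 to 0.69 (FASN), -0.68 to 0.95 (SCD), -0.16 to 0.19 (ELOVL5), -0.86 to 0.92 (ELOVL6), -0.24 to 0.29 (FADS1), -0.054 to 0.13 (FADS2), -0.27 to 0.091 (ACSL3) and -1.64 to 2.10 (ACSS2). ACACA kept its direction in both.

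In shCTRL V against shCTRL D, 79 of 80 alternative values kept their direction and side of the threshold; FADS2 passed it with edgeR. In shDAT D against shCTRL D, 64 of 80 did. The count of called genes there was 0 with edgeR and 0 to 6 without 1 library, with 6 only without shCTRL VXN replicate 2. In the DESeq2 rerun with all libraries and TMM factors, ACSL3 alone was called (0.18, adjusted p 0.0470). The whole table moved alike: 0 of 20402 features were called with edgeR and 0 to 3 in the other reruns without 1 library. Without shCTRL VXN replicate 2, 3103 were higher and 4727 lower of 22454. The rerun with TMM factors called 118 higher and 308 lower of 14048. ACSS2 was 0.0049 with edgeR and -0.15 to 0.048 without 1 library. The cause was not tested. Libraries in which a pair differs by little more than counting noise limit what the spread behind these p-values measures, and no setting here removes the disagreement between the labels and the deposited tables.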
